A study of Mus musculus with 65 samples.

Results

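Bcl11b, Foxp2, Tbr1, Sox5 and Nr4a2 are transcription factors that act in the first-born neurons of the cerebral cortex, those of the deep layers and of the subplate beneath them. They were taken by name from the deposited tables, where all 5 were found among 10407 genes. The values come from 65 single cells of CD1 mouse embryos labelled wild type, 1 library per cell, collected by Patch-seq, which draws out a cell's content through a patch pipette. The first group was 19 progenitors of embryonic day 15 placed in the brain of an embryonic day 12 host (E15 in E12, here transplanted cells). The other groups were 26 cells of embryonic day 15 (E15 cells) and 20 of embryonic day 12 (E12 cells), both marked with FlashTag, a fluorescent dye that labels progenitors dividing at the ventricular surface. The series asks whether apical progenitors keep the ability to make earlier cell types, and these 5 genes are among the factors of those earlier types. The labels give neither the animal, the litter, the host nor the time between transplantation and collection. Each group was therefore taken as 1 sample, and cells gave neither p-values nor standard errors.

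As background, cortical progenitors at the ventricular surface first give rise to subplate and deep-layer neurons and later to neurons of the upper layers. Bcl11b (also called Ctip2) is a zinc finger factor of subcerebral projection neurons, and it is also strongly expressed in striatal neurons. Foxp2 is a forkhead factor of corticothalamic neurons and of striatal neurons. Tbr1, a T-box factor, and Sox5, a SoxD factor, act in layer 6 and subplate neurons and limit the subcerebral programme there. Nr4a2 (Nurr1) is an orphan nuclear receptor found in subplate and claustrum neurons, and in other cells it is an immediate-early gene that stimulation induces.

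Levels are counts per 1000000 reads of the tables (CPM), with the reads of a group added up, and bounds in parentheses are exact 95% limits. The limits of levels and ratios cover counting error only, with reads taken as independent. Several PCR reads may stem from a single molecule and no molecular identifiers were used, so these limits may be too narrow even for counting error. Depth was 22358 to 3622411 reads in transplanted cells, 11449 to 4560871 in E15 cells and 10928 to 1635767 in E12 cells. More than 8000 genes were detected in 16 libraries, called many-gene libraries here, of which 5 were transplanted, 11 were E15 and 0 were E12. In these, the summed level of 15 measured genes of the ventral telencephalon and striatum (of 24 listed) had a median of 3166.5 CPM in transplanted and 4227 CPM in E15 cells. The range was 136.1 to 5160.4 CPM in transplanted and 3744.1 to 5579.1 CPM in E15 many-gene libraries. In the other 49 libraries the medians were 665.3 CPM in 14 transplanted, 639.7 CPM in 15 E15 and 265.6 CPM in 20 E12 cells, and Gsx2 and Zfp503 of that list were at 0 in all E12 cells. Many-gene libraries had less of the 19 apical progenitor genes, with a median sum of 3547.3 CPM in transplanted and 2998.6 CPM in E15 cells. The other libraries had medians of 9197.4 CPM in transplanted, 23318.6 CPM in E15 and 10468.4 CPM in E12 cells, and every library held reads of these genes. Of 14 microglia genes, all measured, the median sum was 29.54 CPM in the transplanted and 3072.3 CPM in the E15 many-gene libraries, and 373.7 CPM in other transplanted, 118.6 CPM in other E15 and 37.66 CPM in E12 cells. Of 9 erythroid genes 5 were measured, all globins, and their summed reads were at 15773.3 CPM in transplanted, 2636.3 CPM in E15 and 2957.9 CPM in E12 cells, and at 43046.7 CPM in transplanted and 6282.8 CPM in E15 cells without the many-gene libraries. Per cell the erythroid sum was 25.24 to 64865.1 CPM in transplanted, 5.074 to 57642.8 CPM in E15 and 322.0 to 21297.6 CPM in E12 cells, highest in transplanted replicate 19. None of 7 listed genes of Cajal-Retzius cells, another early-born cell type, was among the genes analysed here. Values are given with and without the many-gene libraries, and the part these libraries play in each difference was not tested.

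Bcl11b (chromosome 12, 107910403 to 108003602, GRCm38) had reads in 14 of 19 transplanted, 18 of 26 E15 and 6 of 20 E12 cells. The exact Clopper-Pearson limits of these shares were 48.8 to 90.9% in transplanted, 48.2 to 85.7% in E15 and 11.9 to 54.3% in E12 cells. It was higher in transplanted and in E15 cells than in E12 cells, at 251.8 CPM (243.2 to 260.7) in transplanted, 371.5 CPM (365.3 to 377.7) in E15 and 53.62 CPM (47.36 to 60.48) in E12 cells. Per cell, the lowest value was 0 in every group. The median was 34.08 CPM and the highest 499.4 CPM in transplanted cells, 196.9 and 983.8 CPM in E15 cells, and 0 and 350.9 CPM in E12 cells, so the groups overlapped. All 16 many-gene libraries held Bcl11b reads, as they did for 52.7% of all genes, at 26.72 to 499.4 CPM in the 5 transplanted and 132.2 to 642.4 CPM in the 11 E15 libraries. They held 81.9% of the Bcl11b reads and 63.5% of all reads of the transplanted group, and 86.7% of the Bcl11b reads and 70.6% of all reads of the E15 group. Without them Bcl11b was at 124.8 CPM in 14 transplanted, 168.1 CPM in 15 E15 and 53.62 CPM in the 20 E12 cells. A single library then led each group (transplanted replicate 19, the cell highest in globins, E15 replicate 10 and E12 replicate 19), and without it as well the levels were 57.9 CPM in transplanted, 41.3 CPM in E15 and 26.7 CPM in E12 cells. E15 replicate 10, the cell at 983.8 CPM, had sums of 1115.9 CPM of excitatory neuron genes, 29.67 CPM of ventral and striatal genes and 8343.5 CPM of microglia genes. Cells outside the many-gene libraries thus had low or no Bcl11b in most cases, with medians of 14.81 CPM in transplanted, 0 in E15 and 0 in E12 cells.

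Foxp2 (chromosome 6, 14901349 to 15441977) followed the same order of groups. It was at 79.5 CPM (74.68 to 84.56) in transplanted, 99.02 CPM (95.86 to 102.3) in E15 and 6.07 CPM (4.095 to 8.665) in E12 cells. Reads were found in 10 of 19 transplanted, 16 of 26 E15 and 5 of 20 E12 cells. Limits of these shares were 28.9 to 75.6% in transplanted, 40.6 to 79.8% in E15 and 8.66 to 49.1% in E12 cells. Per cell the median was 6.019 CPM in transplanted, 37.44 CPM in E15 and 0 in E12 cells, and the highest values were 1864.9, 311.3 and 133.6 CPM in these groups. The transplanted cell at 1864.9 CPM, replicate 16, was outside the many-gene libraries and had 115 Foxp2 reads among 61665. Its sum of 4 excitatory neuron genes (Neurod1, Neurod2, Neurod6 and Slc17a7) was 1151.4 CPM and its ventral and striatal sum 32.43 CPM. By medians the many-gene libraries were the reverse, with an excitatory sum of 3.365 CPM in transplanted and 8.551 CPM in E15 cells. Their excitatory sums ran up to 2398.5 CPM, in transplanted replicate 17, where the ventral and striatal sum was lower, at 1175.8 CPM. All 16 many-gene libraries held Foxp2 reads, 76.5% of those of the transplanted and 84.8% of those of the E15 group. With these libraries left out Foxp2 was at 51.29 CPM in transplanted, 51.16 CPM in E15 and 6.07 CPM in E12 cells. It was then 26.87 CPM without transplanted replicate 16, 26.11 CPM without E15 replicate 13 and 3.308 CPM without E12 replicate 4.

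Tbr1 (chromosome 2, 61802930 to 61814114) was read in few cells, 5 of 19 transplanted, 6 of 26 E15 and 3 of 20 E12. The shares had limits of 9.15 to 51.2% in transplanted, 8.97 to 43.6% in E15 and 3.21 to 37.9% in E12 cells. The median cell was at 0 in every group. The highest cells were at 353.6 CPM in transplanted (replicate 17), 161.2 CPM in E15 (replicate 10) and 213.7 CPM in E12 cells (replicate 7). Summed levels were 22.65 CPM (20.11 to 25.42) in transplanted, 11.55 CPM (10.49 to 12.69) in E15 and 10.72 CPM (8.033 to 14.03) in E12 cells. Transplanted replicate 17 alone held 86.5% of the transplanted Tbr1 reads, and without it the level was 3.247 CPM, under that of the E12 cells. E15 replicate 10 held 55.2% of the E15 reads, and E12 replicate 17 held 69.8% of the E12 reads. The order of the groups for Tbr1 therefore turned on single cells.

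Several of the cells highest in Tbr1 also carried excitatory neuron genes. The sum of the 4 excitatory neuron genes was 2398.5 CPM in transplanted replicate 17, 1115.9 CPM in E15 replicate 10, 804.6 CPM in E15 replicate 6, 595.4 CPM in E12 replicate 7 and 682.7 CPM in E12 replicate 17. It was lower in cells with 2 Tbr1 reads each, at 0 in transplanted replicate 10 (80.3 CPM of Tbr1) and 143.8 CPM in E12 replicate 12 (71.89 CPM of Tbr1). Some many-gene libraries with more Tbr1 reads also had low sums. These were 0.2761 CPM in transplanted replicate 15 (25 reads), and 8.551, 1.735 and 22.08 CPM in E15 replicates 7, 22 and 20 (14, 8 and 4 reads). Over all 65 cells the median sum was 82.93 CPM in the 14 cells with a Tbr1 read and 12.04 CPM in the 51 cells without. Over the 49 libraries outside the many-gene class the median sum was 651.3 CPM in the 7 cells with a Tbr1 read and 15.53 CPM in the 42 cells without. Many-gene libraries held 95.8% of the transplanted and 6.47% of the E15 Tbr1 reads. By cells, Tbr1 was read in 3 of 5 many-gene and 2 of 14 other transplanted libraries, and in 4 of 11 many-gene and 2 of 15 other E15 libraries.

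Sox5 (chromosome 6, 143828425 to 144781977) was the member read in the most E12 cells. It had reads in 13 of 19 transplanted, 14 of 26 E15 and 10 of 20 E12 cells. Limits of the shares were 43.4 to 87.4% in transplanted, 33.4 to 73.4% in E15 and 27.2 to 72.8% in E12 cells. Levels were 89.33 CPM (84.21 to 94.68) in transplanted, 37.17 CPM (35.24 to 39.17) in E15 and 134.8 CPM (124.7 to 145.4) in E12 cells. Sox5 thus lay between the E15 and the E12 level in transplanted cells. Per cell the median was 8.088 CPM in transplanted, 4.671 CPM in E15 and 31.99 CPM in E12 cells, with highest values of 379.8, 216.4 and 1040.9 CPM, and the groups overlapped widely. The E12 cell at 1040.9 CPM, replicate 11, had an excitatory neuron sum of 3349.4 CPM and no read of the ventral and striatal genes. Without the many-gene libraries Sox5 was at 94.83 CPM in transplanted, 73.38 CPM in E15 and 134.8 CPM in E12 cells.

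Nr4a2 (chromosome 2, 57106830 to 57124003) went the other way from Bcl11b and Foxp2. It was at 4.325 CPM (3.258 to 5.63) in transplanted, 0.8538 CPM (0.584 to 1.205) in E15 and 179.5 CPM (167.9 to 191.7) in E12 cells. Reads were found in 6 of 19 transplanted, 6 of 26 E15 and 9 of 20 E12 cells, and the median cell was at 0 in all groups. The limits of these shares were 12.6 to 56.6% in transplanted, 8.97 to 43.6% in E15 and 23.1 to 68.5% in E12 cells. In cells with a read the median was 41.45 CPM in transplanted, 1.595 CPM in E15 and 84.59 CPM in E12 cells. The highest transplanted cells were at 167.8, 120.5 and 51.67 CPM, which rest on 5, 3 and 6 reads. One E15 cell was at 198.1 CPM with 12 reads, and the other 5 with a read were at 3.513 CPM or less.

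The E12 level of Nr4a2 came from few cells. Replicates 1, 10, 5 and 19 were at 1227.1, 816.5, 257.4 and 238.8 CPM, the other 5 E12 cells with a read lay at 12.8 to 84.59 CPM, and 11 E12 cells had none. Replicate 5 held 47.5% of the E12 reads of the gene, and without it the E12 level was 140.9 CPM. The mean of the CPM of single cells, which weights cells equally, was 20.31 in transplanted, 7.913 in E15 and 137.8 in E12 cells, so the order of the groups was the same and the distance smaller. Nr4a1, the paralog that is a classical immediate-early gene, was at 3.067 CPM in transplanted and 7.391 CPM in E15 cells and had no read in E12 cells. Immediate-early genes (8 measured of 12) were uneven in cells with Nr4a2. Their sum was 939.4 CPM in transplanted replicate 3, 2212.4 CPM in E15 replicate 17 and 2127.3, 147.9 and 533.7 CPM in E12 replicates 1, 10 and 5, the highest Nr4a2 cells. In the 49 libraries outside the many-gene class the median sum was 473.6 CPM in 13 cells with an Nr4a2 read and 567.2 CPM in 36 without. The highest sum of all E12 cells, 15145 CPM in replicate 7, came with no Nr4a2 read. Among cells with Nr4a2, Fos was read in 1 of 9 E12, 3 of 6 transplanted and 5 of 6 E15 cells. Among all cells it was read in 6 of 20 E12, 5 of 19 transplanted and 18 of 26 E15 cells. The part of these genes in the Nr4a2 level was not tested.

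**Figure D1:**
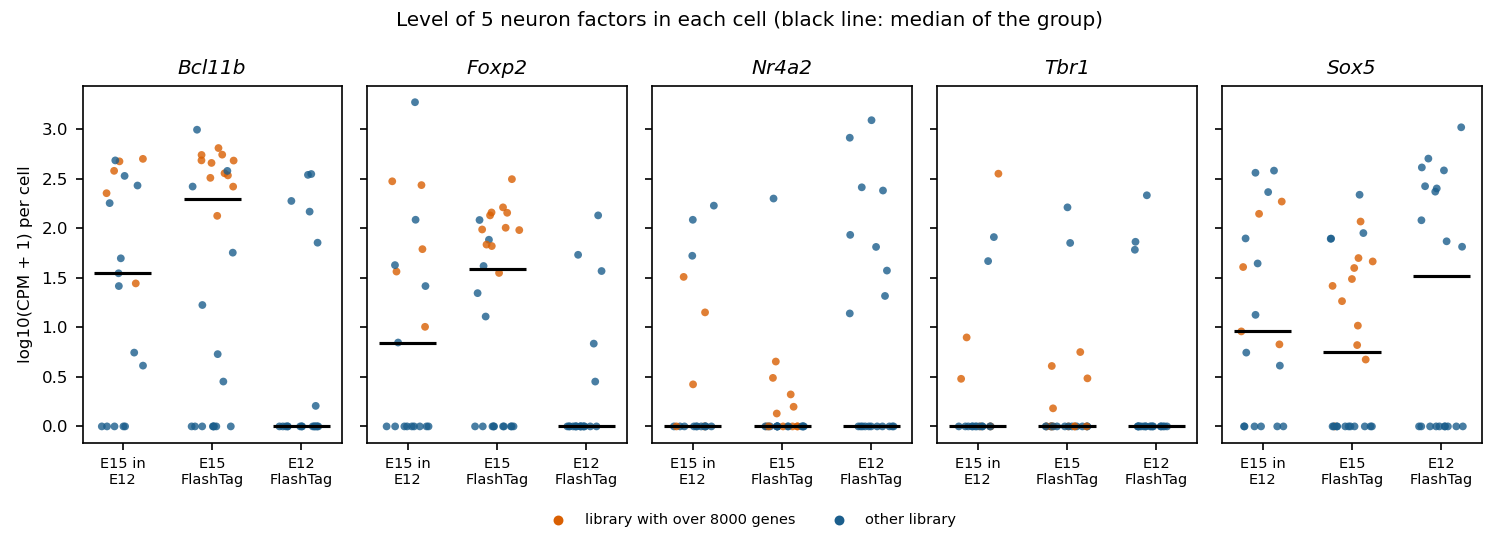
Level of each of the 5 genes in each cell as log10(CPM + 1), in 19 E15 in E12 (transplanted), 26 E15 FlashTag and 20 E12 FlashTag cells, with the group's median CPM as a black line and many-gene libraries in orange. The orange points of Bcl11b and Foxp2 are all above 0, Nr4a2 is highest in 2 E12 cells at 1227.1 and 816.5 CPM, and Tbr1 has reads in only 14 of the 65 cells.

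The promoters of Nr4a2 and Bcl11b are shown because these genes had opposite directions between the ages, and 4 of the 5 genes had an entry in the promoter table of RefSeq (GRCm38.p6). Each runs from 250 bases before to 50 bases after the gene's start, on the minus strand, written 5′ to 3′. The start in RefSeq is 57124003 for Nr4a2, the end of the annotated gene given above, and 108003414 for Bcl11b, 188 bases inside it. Capitals mark TGACG, the core of the cyclic AMP response element, and TATAAA, the motif of the TATA box, each searched on both strands (CGTCA and TTTATA). In both promoters the TATAAA match stands as TTTATA, so it lies on the strand opposite to the gene. These motifs were chosen after the sequences had been seen.
Nr4a2, chr2:57123954-57124253: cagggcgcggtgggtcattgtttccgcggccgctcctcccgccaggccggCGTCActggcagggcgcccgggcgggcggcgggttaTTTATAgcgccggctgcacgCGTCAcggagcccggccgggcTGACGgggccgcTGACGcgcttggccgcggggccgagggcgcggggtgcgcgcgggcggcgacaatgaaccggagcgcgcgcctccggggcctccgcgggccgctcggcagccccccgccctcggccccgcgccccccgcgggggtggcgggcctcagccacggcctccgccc
Bcl11b, chr12:108003365-108003664: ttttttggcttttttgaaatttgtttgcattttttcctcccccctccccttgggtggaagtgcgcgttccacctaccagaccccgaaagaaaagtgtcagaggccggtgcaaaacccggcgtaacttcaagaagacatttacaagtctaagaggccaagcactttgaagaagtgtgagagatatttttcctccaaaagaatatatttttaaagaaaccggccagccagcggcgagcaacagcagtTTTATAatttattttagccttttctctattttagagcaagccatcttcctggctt
The Nr4a2 promoter held 4 matches of TGACG and 1 of TATAAA, with no overlap between them, and the Bcl11b promoter 0 and 1. Of 32851 promoters of the same length, 20.8% held TGACG and 13.6% held TATAAA. A match describes these letters and shows neither a bound site nor a cause.

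The E15 against E12 comparison asks how the ages differ. A gene was counted as apart when it reached 2-fold on log2(CPM + 1) of the added reads and 5 CPM in either group. Of the 5 genes 4 were apart, 2 higher (Bcl11b and Foxp2) and 2 lower at E15 (Nr4a2 and Sox5). The same criterion was met by 45.6% of the 10193 genes at 5 CPM, with 25.3% higher and 20.3% lower at E15, so a difference of this size was common. The log2 ratio was 2.77 for Bcl11b (2.20 to 3.75 when single cells were left out), 3.82 for Foxp2 (3.45 to 4.54), -1.83 for Sox5 (-2.14 to -1.62) and -6.61 for Nr4a2 (-6.88 to -6.26). The highest value of Bcl11b came without E12 replicate 19 and that of Foxp2 without E12 replicate 4. The Nr4a2 ratio was the lowest of all 10193 genes. Tbr1 had a log2 ratio of 0.10, which was -0.88 without E15 replicate 10 and 1.42 without E12 replicate 17.

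Several of these values depended on which libraries entered. Without the many-gene libraries the E15 to E12 log2 ratio was 1.63 for Bcl11b and 2.88 for Foxp2, -0.87 for Sox5, 1.69 for Tbr1 and -6.43 for Nr4a2. Then 3 members were higher (Bcl11b, Foxp2 and Tbr1) and 1 lower, against 24.2% higher, 21.6% lower and 45.8% in all of 9819 genes. Leaving out E15 replicate 10 as well, with all E12 cells kept, turned Bcl11b to -0.37. As means over single cells of the other libraries, the values were 1.03 for Bcl11b, 0.60 for Foxp2 and -3.29 for Nr4a2. Cells also carry a pool letter, A to H, which the labels leave unexplained. Within pools Foxp2 was higher in E15 cells in 8 of 8 pools and Bcl11b in 6 of 8, while Nr4a2 and Sox5 were each lower in 7 of 8. Tbr1 was higher in 3, lower in 2 and equal in 3 pools.

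The comparison of transplanted with E12 cells sets the moved progenitors beside cells of the age of their host. It shares the E12 cells with the comparison above, so the values are given side by side and not as further support. Of the 5 genes 4 were apart, 3 higher (Bcl11b, Foxp2 and Tbr1) and 1 lower in transplanted cells (Nr4a2), against 47.6% of 9931 genes in all, 22.9% higher and 24.7% lower. The log2 ratio of transplanted over E12 cells was 2.21 for Bcl11b (1.64 to 3.19 when single cells were left out), 3.51 for Foxp2 (3.04 to 4.22), -0.59 for Sox5 (-0.94 to -0.38) and -5.08 for Nr4a2 (-5.59 to -4.74). The upper values again came without E12 replicate 19 for Bcl11b and E12 replicate 4 for Foxp2. Tbr1, at 1.01, turned to -1.47 without transplanted replicate 17, which is a many-gene library, and was 2.33 without E12 replicate 17. Without the many-gene libraries the ratios were 1.20 for Bcl11b, 2.89 for Foxp2, -1.71 for Tbr1, -0.50 for Sox5 and -5.49 for Nr4a2. Then 2 members were higher and 2 lower, against 22.5% higher, 29.8% lower and 52.3% in all of 9594 genes. Bcl11b was then at 0.11 when transplanted replicate 19 was left out too. As means over single cells Nr4a2 was at -2.7 and Sox5 at -1.08. In the 7 pools that held both groups, Foxp2 was higher in transplanted cells in 6, Bcl11b in 5 and Tbr1 in 4, and Nr4a2 was lower in 5 and Sox5 in 6.

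The comparison of transplanted with E15 cells asks how E15 progenitors that had spent time in an E12 host differ from those that had not. Among the 5 genes 1 was apart, Sox5, which was higher in transplanted cells, against 16.5% of 10163 genes in all, 4.71% higher and 11.8% lower. The Sox5 log2 ratio was 1.24 (0.89 to 1.55 when single cells were left out), and 0.89 without transplanted replicate 15. It was 0.37 without the many-gene libraries, under 2-fold, and there 0 members were higher and 1 lower (Tbr1), against 18.7% higher, 28.0% lower and 46.7% in all of 9799 genes. Sox5 was higher in transplanted cells in 5 of 7 pools.

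The other members differed little or unevenly between transplanted and E15 cells. Bcl11b had a log2 ratio of -0.56 (-0.88 to -0.39), and -0.43 without the many-gene libraries, where single cells moved it between -1.52 and 1.57. Foxp2 had -0.31 (-0.78 to 0.12), 0.00 without the many-gene libraries (-0.90 without transplanted replicate 16 as well, and 0.95 without E15 replicate 13). Averaged over the ratios of single pools it was -1.97. On the mean CPM of single cells it was 1.19, and there transplanted replicate 16 weighs most. Tbr1 had 0.91, which became -1.56 without transplanted replicate 17 and -3.40 without the many-gene libraries, where 12 reads in transplanted cells stood against 405 in E15 cells. Nr4a2 was under 5 CPM in both groups and was not counted, with 55 reads in transplanted and 32 in E15 cells. The CPM ratio of Nr4a2 was 5.07 (3.22 to 8.10 from counting error alone, with reads taken as independent). Over all cells the transplanted level of Bcl11b, Foxp2, Sox5 and Nr4a2 lay between the E15 and the E12 level, and that of Tbr1 lay above both. How many of all genes lay between in this way was not counted. On the mean CPM of single cells Foxp2 lay above both, at 143.7 in transplanted, 62.2 in E15 and 11.5 in E12 cells. Without the many-gene libraries Tbr1 lay below both, at 2.586 CPM in transplanted, 36.74 CPM in E15 and 10.72 CPM in E12 cells.

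**Figure D2:**
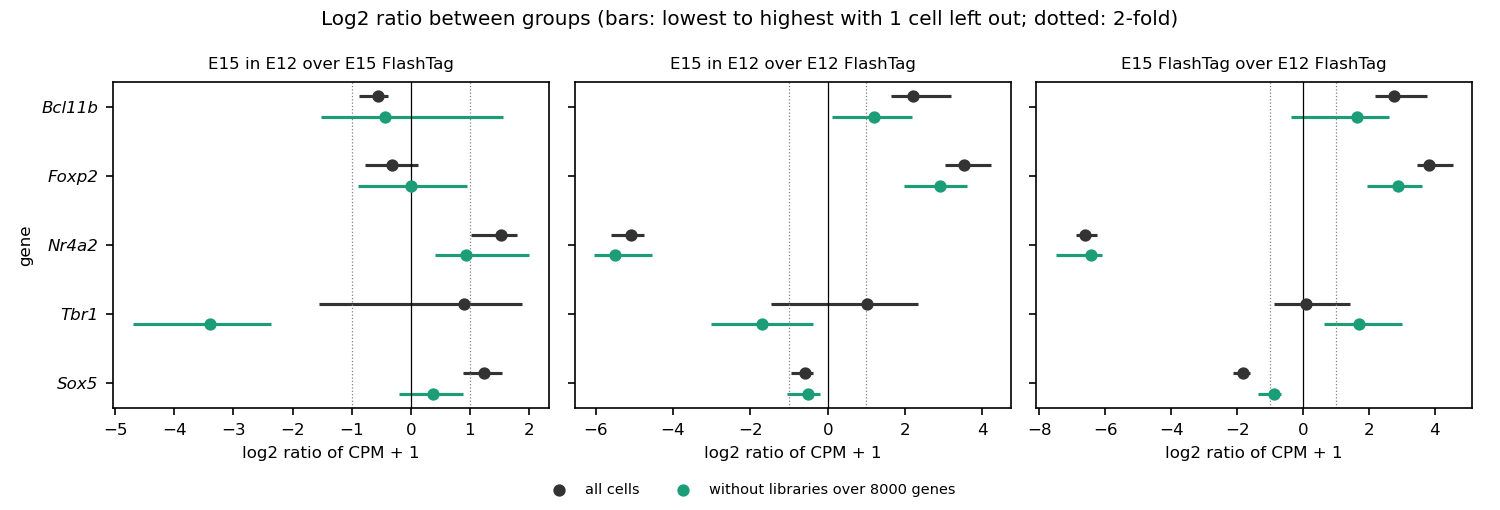
Log2 ratio of CPM + 1 for each gene in the 3 comparisons, over all cells (black) and without the many-gene libraries (green), with bars from the lowest to the highest value when single cells are left out. Against E12 cells Nr4a2 lies at -5.08 or lower and Foxp2 at 2.88 or higher in both settings, and the 2 Tbr1 values of transplanted over E15 cells are 0.91 and -3.40.

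Detection was also compared at an equal depth, with each cell thinned to 20000 reads, which 19 transplanted, 25 E15 and 18 E12 cells reached. Bcl11b was then read in 52.6% of transplanted, 56.0% of E15 and 22.2% of E12 cells, lower shares than at full depth. Foxp2 was read in 26.3% of transplanted, 48.0% of E15 and 11.1% of E12 cells. Nr4a2 was read in 10.5% of transplanted, 8.0% of E15 and 33.3% of E12 cells. Over all cells the order of these genes between E15 and E12 cells was thus kept when depth was equal. Without the many-gene libraries the thinned share of Bcl11b was 21.4% in E15 and 22.2% in E12 cells, so its order was lost. Foxp2 was then at 28.6% in E15 and 11.1% in E12 cells, and Nr4a2 at 7.14% and 33.3%, in the same order as over all cells. Sox5 was read in 42.1% of transplanted, 28.0% of E15 and 44.4% of E12 cells. Tbr1 was read in 15.8% of transplanted, 4.0% of E15 and 5.56% of E12 cells, which is 3, 1 and 1 cells at equal depth.

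The 5 genes met in the same cells mainly in the many-gene libraries, which had reads of 8193 to 10197 of the 10407 genes, so that most genes met there. Of all genes 52.7% were read in every one of the 16 libraries. All 5 were read in 3 transplanted, 2 E15 and 0 E12 cells, each of them a many-gene library. The median number of members read was 5 in transplanted and 4 in E15 many-gene libraries, and 2 in other transplanted, 1 in other E15 and 1.5 in E12 cells. Bcl11b and Foxp2 were both read in 16 of 16 many-gene and 8 of 49 other libraries. Their Pearson correlation of log2(CPM + 1) was 0.47 over 65 cells and 0.09 over the 49, where depth and library are shared by both values. Isl1, a striatal factor, was read in 12 of the 16 many-gene libraries, and in 3 of the 49 others, none of which had Foxp2 and 1 of which had Bcl11b.

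Tbr1 and Sox5 overlapped in a different way. Sox5 was read in 13 of the 14 cells with Tbr1, in 7 of 7 many-gene and 6 of 7 other libraries. Of all cells Sox5 was read in 37 of 65, in 15 of 16 many-gene and 22 of 49 other libraries. Cells with Tbr1 were also deeper, with a median of 1236093 reads against 180217 in cells without. The correlation of Tbr1 and Sox5 was 0.34 over all 65 cells and 0.34 over the 49. Neurod6, a bHLH factor of excitatory cortical neurons, was read in 11 of the 14 cells with Tbr1 and in 31 of all 65. Fezf2, a zinc finger factor upstream of Bcl11b in subcerebral neurons, was read in 24 of the 37 cells with Sox5 and in 8 of the 28 without. Depth differed between these cells, with a median of 872411 reads with Sox5 and 123461.5 without, and its part in the counts was not tested. Fezf2 and Bcl11b were both read in 10 of the 22 other libraries with Bcl11b, and Fezf2 in 14 of the 27 without it. Nr4a2 was read with Tbr1 in 0 of 20 E12 cells, of which 9 had Nr4a2 without Tbr1 and 3 had Tbr1 without Nr4a2. Over all 65 cells Nr4a2 was read in 6 of the 14 cells with Tbr1 and in 21 of all cells. In the many-gene libraries it was read in 5 of the 7 with Tbr1 and in 8 of all 16. So few E12 cells had either gene that their count of 0 does not show that the genes exclude each other.

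**Figure D3:**
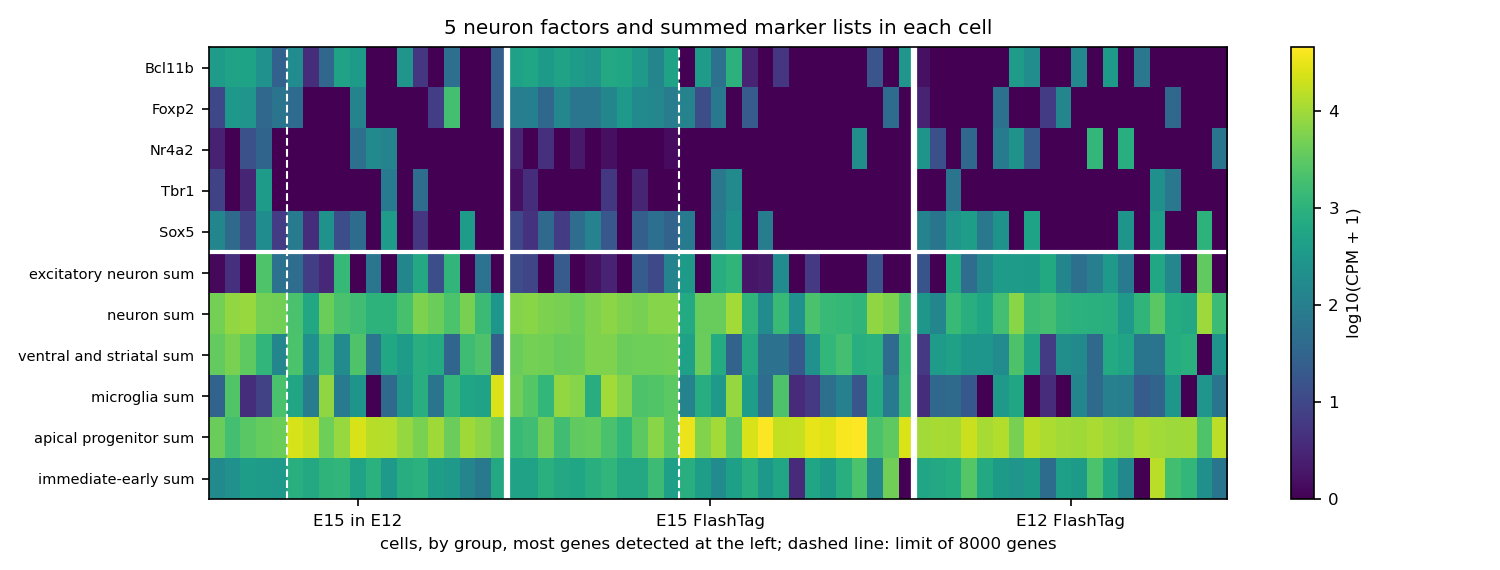
Levels of the 5 genes and summed levels of 6 marker lists as log10(CPM + 1) in each of the 65 cells, with cells in columns by group, those with the most genes detected at the left of each group, and a dashed line at 8000 genes. Left of the dashed lines Bcl11b and Foxp2 are read in every cell, and most of these cells have high ventral and striatal sums. Transplanted replicates 14 and 17 have lower ventral and striatal sums there, 136.1 and 1175.8 CPM. High Tbr1 values fall mostly on cells with high excitatory neuron sums.

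Paralogs of the members were read alongside. Bcl11a, the paralog of Bcl11b, was nearly level, at 191.7 CPM in transplanted, 199.1 CPM in E15 and 206 CPM in E12 cells, and at 220.9 CPM in transplanted and 90.71 CPM in E15 cells without the many-gene libraries. Foxp1, a striatal and cortical relative of Foxp2, was at 94.29 CPM in transplanted, 265.3 CPM in E15 and 124.2 CPM in E12 cells, and at 73.49 CPM in transplanted and 146.9 CPM in E15 cells without the many-gene libraries. Foxp4 was at 6.763, 21.19 and 11.94 CPM in these groups. Eomes (Tbr2), the T-box factor of intermediate progenitors, was at 26.42 CPM in transplanted, 53.79 CPM in E15 and 87.81 CPM in E12 cells. Without the many-gene libraries Eomes was at 31.9 CPM in transplanted and 147.4 CPM in E15 cells, so that E15 cells lay above E12 cells. Sox6, the SoxD partner of Sox5, was at 105.6 CPM in transplanted, 58.65 CPM in E15 and 138.8 CPM in E12 cells, the same order as Sox5. Without the many-gene libraries Sox6 was at 153.7 CPM in transplanted, 154.6 CPM in E15 and 138.8 CPM in E12 cells, so that order was lost. Sox13, the other SoxD factor, was at 1.022 CPM in transplanted, 3.655 CPM in E15 and 35.41 CPM in E12 cells.

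Other genes of deep layers and subplate, 30 listed and 14 measured, did not share a direction. In transplanted over E15 cells 0 were at least 2-fold higher and 5 lower, where 4.71% of all genes were higher and 11.8% lower. The median log2 ratio was -0.12, against -0.08 over all genes. Syt6, a synaptotagmin of corticothalamic neurons, was at 13.84 CPM in transplanted and 75.56 CPM in E15 cells, a log2 ratio of -2.37 that was -3.29 without transplanted replicate 6 and -0.86 without the many-gene libraries. S100a10, a calcium-binding partner of annexin found in layer 5, was at 50.88 CPM in transplanted and 125.8 CPM in E15 cells, a log2 ratio of -1.29 that was -0.85 without E15 replicate 10. In transplanted over E12 cells 3 were higher and 5 lower, where 22.9% of all genes were higher and 24.7% lower (median -0.64, against -0.09 over all genes). Grik3, a kainate receptor subunit, was at 50.01 CPM in transplanted cells and 0.4047 CPM, or 2 reads, in E12 cells. Lpar1, a lysophosphatidic acid receptor listed here with the subplate genes, was at 21.63 CPM in transplanted and 153.4 CPM in E12 cells. Its log2 ratio of -2.77 was -3.60 without transplanted replicate 2 and -2.17 without E12 replicate 5. That E12 cell held 56.1% of the E12 reads of Lpar1, and had sums of 10247.8 CPM of apical progenitor genes and 286.1 CPM of neuron genes. Without the many-gene libraries Lpar1 was at 56.9 CPM in transplanted cells, nearer to the E12 level.

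In E15 over E12 cells 4 of the 14 were higher and 6 lower, where 25.3% of all genes were higher and 20.3% lower (median -0.13, against -0.03 over all genes). S100a10 was at 125.8 CPM in E15 and 3.237 CPM in E12 cells, and at 183.6 CPM in E15 cells without the many-gene libraries. E15 replicate 10 held 68.3% of the reads behind that last level, and the log2 ratio there was 5.45 with and 4.01 without it. Grik3 was at 40.69 CPM in E15 and 0.4047 CPM in E12 cells, but at 0.3628 CPM in E15 cells without the many-gene libraries. Transplanted cells were at 53.67 CPM there, from reads in 3 of 14 cells, with 58.6% of these reads in replicate 19 and a median cell at 0. Lpar1 was at 46.05 CPM in E15 and 153.4 CPM in E12 cells, and at 153.5 CPM in E15 cells without the many-gene libraries, level with E12 cells. Fezf2 was at 19.27 CPM in transplanted, 19.61 CPM in E15 and 63.74 CPM in E12 cells, and at 43.97 CPM in transplanted and 65.4 CPM in E15 cells without the many-gene libraries. The Fezf2 log2 ratio of E15 over E12 cells was -1.65 over all cells and 0.04 without the many-gene libraries, and E15 replicate 10 held 73.7% of the E15 reads. Over all cells it was -3.35 without that cell and -0.83 without E12 replicate 9.

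**Figure D4:**
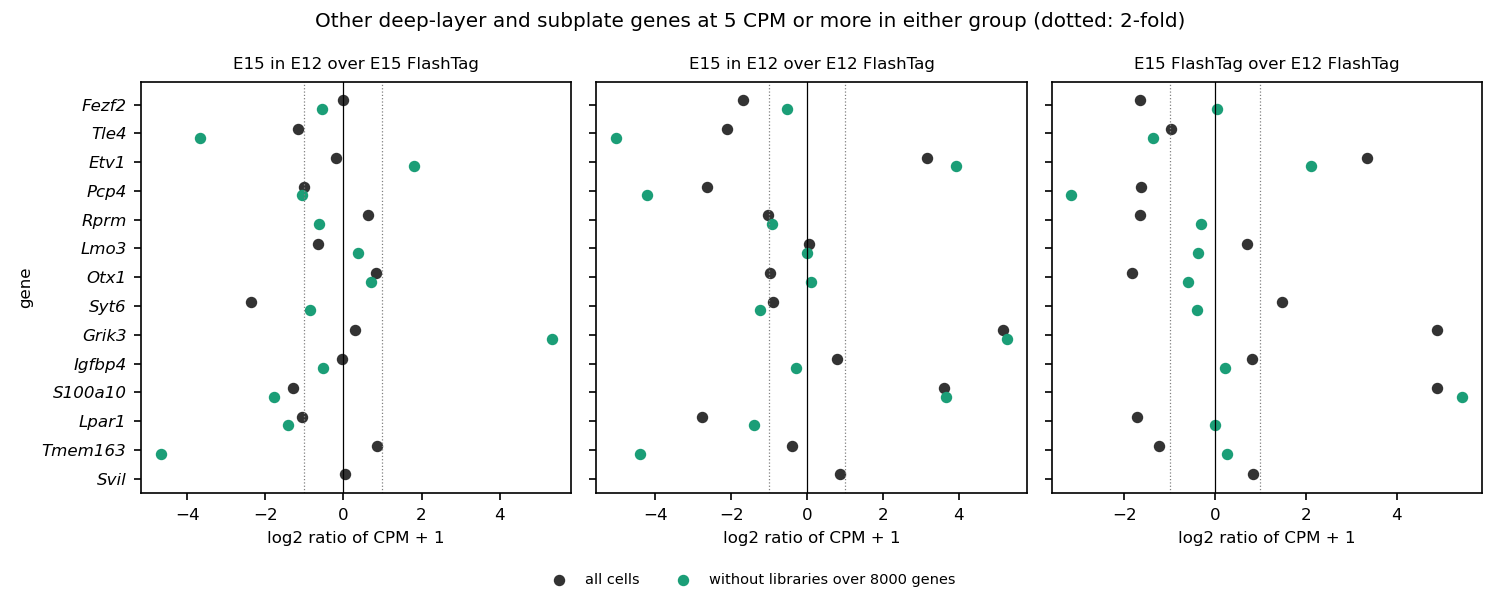
Log2 ratio of CPM + 1 of 14 other deep-layer and subplate genes in the 3 comparisons, over all cells (black) and without the many-gene libraries (green), shown where a gene reached 5 CPM in either group, with dotted lines at 2-fold. Grik3 and S100a10 lie at 5.18 and 3.61 in transplanted over E12 cells and Lpar1 at -2.77. The green points of Tmem163 in transplanted cells rest on 0 reads and so depend on the pseudocount.

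For each member the 3 genes with the most similar pattern over the 65 cells were taken by Pearson correlation of log2(CPM + 1) among 9824 genes, which describes likeness only and moves with depth and library. For Bcl11b these were Sez6l2, Bicd2 and Celf3, with correlations of 0.77, 0.74 and 0.73 over 65 cells and 0.66, 0.57 and 0.58 over the 49 other libraries. For Foxp2 they included Chgb, a secretory granule protein, and Bsn, a presynaptic scaffold, at 0.72 and 0.70 over 65 and 0.50 and 0.58 over 49 cells. Tbr1 was closest to Neurod6 at 0.53 (0.52 over 49 cells), then to Trappc2 and Zdhhc12, both at 0.48. Sox5 was closest to Rnaseh2a, a subunit of ribonuclease H2, at 0.61 (0.62 over 49 cells), then to Zscan21 and Zfp617 at 0.60 and 0.57. Nr4a2 was closest to Polg2, a mitochondrial DNA polymerase subunit, at 0.52 (0.58 over 49 cells), then to Pigc at 0.49.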

How the data were processed

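Each of 65 cells gave a Patch-seq library, prepared by 3' SMART-Seq and Nextera XT, per the labels' protocols. Per the submitters' processing notes, STAR, HTSeq and mm10 were used, with versions not given in the sources used here. The deposited values are log10 residuals. From the values, they are log10 of 1 plus scaled counts, centred per gene, with 2 further directions over cells removed (3 in all with the centring). Counts had been assumed at first and were recovered from these residuals, for 10034 genes from the cells at 0 and for 373 by an integer search. Of 356667 values above 0, 100% were whole within 0.01, and the recovery was tested on simulated data. The tables hold genes read in 6 or more cells, and rarer genes were not used here.

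Groups came from the labels. Depth ran from 10928 to 4560871 reads per cell, which limits detection in shallow cells. No library pair held identical counts. CPM used the summed reads of each group over 10407 genes. Log2 ratios used a pseudocount of 1 CPM, and a gene counted at 2-fold and 5 CPM. No test between groups was made. Limits were exact Poisson for levels, exact Clopper-Pearson for shares and conditional binomial for ratios. Without strand stated, reads of overlapping antisense genes cannot be told apart. All members were named. Of each list, up to 2 genes by level and up to 2 by size of ratio could be named, with all paralogs and the 3 most similar genes per member, read in at least 10 cells, predicted genes passed over. For Foxp2 and Nr4a2 not all of the similar genes are reported here. Fezf2, Isl1, Fos, Gsx2, Zfp503 and the 4 excitatory neuron genes were named after their values had been seen. The members, the lists and the limit of 8000 genes were chosen with earlier results of these data known. Coordinates are GRCm38 in GENCODE vM21. Alternatives were mean CPM per cell, thinning to 20000 reads, TMM and median-of-ratios factors, pseudocounts of 0.1 and 5 CPM, no minimum, pools, single cells left out and libraries over 8000 genes left out. Means per cell without these libraries, and sums without the other library with most reads of the gene in either group, were added after the data had been seen. Software was Matplotlib 3.10.9, Numba 0.67.0, pandas 2.3.3, SciPy 1.17.1 and NumPy 2.4.6 under Python 3.11.15.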

Additional observations from a re-analysis of the deposited data

How the results depend on the processing

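The direction of Foxp2 (higher) and Nr4a2 (lower) against E12 cells, in transplanted and in E15 cells, was the same in the alternatives listed with the processing. Log2 ratios over these were 1.98 to 4.22 for Foxp2 and -5.82 to -2.46 for Nr4a2 in transplanted cells (-6.03 without the many-gene libraries and transplanted replicate 12), and 0.60 to 4.66 and -7.56 to -3.29 in E15 cells. Tbr1 in transplanted over E12 cells (1.01) reversed to -1.71 without the many-gene libraries, -1.44 without pool B, -1.47 without transplanted replicate 17 (2.33 without E12 replicate 17), -0.87 as mean CPM per cell without the many-gene libraries and -0.39 without these and E12 replicate 17, the library with most of the remaining reads in either group (-3.01 without transplanted replicate 11 in its place). Bcl11b in E15 over E12 cells (2.77) reversed to -0.37 without the many-gene libraries and E15 replicate 10, with E12 replicate 19 kept. The cause was not tested.

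The number of members apart in transplanted over E15 cells, 1, was 4 on mean CPM, 2 on thinned counts, 2 with no minimum, 3 without pool A, 2 without pool D and 2 without pool F, and 1 to 3 when single cells were left out. The 4 on mean CPM were Foxp2, Nr4a2, Tbr1 and Sox5, all higher in transplanted cells. Among the other deep-layer and subplate genes, 10 were apart in E15 over E12 cells, where 45.6% of all genes were. The number was 6 on mean CPM, 6 on thinned counts and 4 without the many-gene libraries, where 45.8% of all genes were apart. The 5 apart in transplanted over E15 cells became 8 on thinned counts, 3 with TMM, 3 with median-of-ratios factors, 3 with a pseudocount of 5 CPM and 8 as means within pools, and 3 to 6 when single cells were left out. The share of all genes apart was computed only over all cells and without the many-gene libraries. Under the other settings these counts stand without that share and say nothing particular to the genes.

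Shares of cells with a read moved by more than their limits without the many-gene libraries in E15 cells, to 46.7% for Bcl11b, 33.3% for Foxp2, 6.67% for Nr4a2 and 26.7% for Sox5. On thinned counts they moved to 26.3% for Foxp2, 10.5% for Nr4a2 and 42.1% for Sox5 in transplanted cells, and to 8.0% for Nr4a2, 4.0% for Tbr1 and 28.0% for Sox5 in E15 cells.

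No paired analysis was possible because replicate numbers were given in accession order and only name cells. Pool letters are shared by the groups, and ratios within pools stand with the results, without a test. With 1 sample a group, differences between animals could not be measured, and for a member at 0 in a shallow cell, absence and non-detection cannot be told apart.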
